A study of Mus musculus with 778 samples.

Results

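*Zp1*, *Zp2* and *Zp3* encode the 3 glycoproteins of the mouse zona pellucida, and their transcripts were followed through oocyte growth in single-cell RNA-seq counts. The members were taken by name, as 3 of the 23201 genes in the count table, and no measured value was used to choose them. Unique molecular identifiers (UMIs), random tags by which copies of 1 cDNA molecule are counted once, were available for 223 hand-picked oocytes from wild type ICR mice. The 5 stages were set by diameter. Non-growing oocytes (NGO, 46 cells) measured under 20 μm and came from pups of 3 to 4 days. The growing oocytes came from mice of 3 to 4 weeks and measured 30 to 45 μm (GO1, 51 cells), 50 to 55 μm (GO2, 26 cells) and 60 to 65 μm (GO3, 44 cells), and the fully-grown oocytes (FGO, 56 cells) of the same age exceeded 70 μm. Stage and mouse age cannot be told apart in any comparison of NGO with a later stage. The 4 libraries that held these cells are not named by the columns, which give only a stage and a cell number. Each stage was therefore handled as 1 pooled sample, differences between stages have no replicate check, and no test between stages was run.

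The zona pellucida is the extracellular coat that a growing oocyte secretes around itself, that sperm bind, and that changes after fertilization so that further sperm no longer pass. ZP2 and ZP3 build its filaments, and ZP1 cross-links them. Each protein is made with a signal peptide and a ZP domain, is glycosylated in the secretory pathway and is cut by a proprotein convertase before it joins the coat. ZP2 is cleaved once more after fertilization by ovastacin, the product of *Astl*. The 3 genes are known targets of FIGLA, a basic helix-loop-helix factor of oocytes that binds the short E-box motif together with an E protein.

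In the NCBIM37 assembly, the build called mm9, the 3 genes lie on different chromosomes, and no other annotated gene overlaps any of them. *Zp1* occupies chr19:10988777-10995122 on the minus strand, with 12 exons and 1963 exonic bases. *Zp2* occupies chr7:127270286-127288804 on the minus strand, with 18 exons and 2233 exonic bases. *Zp3* occupies chr5:136455969-136464494 on the plus strand, with 8 exons and 1323 exonic bases.

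The bases before the start of *Zp3* are shown because *Figla* and its E protein partners are among the genes described further on. The sequence is the 250 bases upstream of the RefSeq start in GRCm38.p6, chr5:135979855-135980104 on the plus strand, which is a later assembly than that of the counts. Capitals mark each E-box (CANNTG) and each TATAA.

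Zp3 promoter: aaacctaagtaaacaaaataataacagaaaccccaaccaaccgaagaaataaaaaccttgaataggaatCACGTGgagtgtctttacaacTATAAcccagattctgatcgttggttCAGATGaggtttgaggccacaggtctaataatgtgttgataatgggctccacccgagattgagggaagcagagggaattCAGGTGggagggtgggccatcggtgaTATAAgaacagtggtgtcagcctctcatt

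These bases hold 3 E-boxes, whose first letters lie at -181, -134 and -55 from the start, and 2 copies of TATAA, at -160 and -29. Both strands were searched, and no E-box overlaps a TATAA here. Among 32851 promoters of the same source, in windows of the same length, 66.2% held at least 1 CANNTG, 6.02% held CACGTG, 17.2% held CAGGTG and 22.8% held TATAA. A letter match of this kind describes the sequence and does not show binding. *Zp1* and *Zp2* were not among the promoter entries used.

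Oocyte identity was checked first. All 9 oocyte markers (*Ddx4*, *Dazl*, *Dppa3*, *Kit*, *Gdf9*, *Bmp15*, *Oosp1*, *Figla* and *Nobox*) reached at least 10 CPM (the UMIs of a gene in each 1000000 UMIs of the stage sum) in every stage. Their summed level was 17269 CPM in NGO, 12883 CPM in GO1, 13642 CPM in GO2, 13378 CPM in GO3 and 15497 CPM in FGO, with *Dppa3*, a maternal factor, the most abundant in NGO, GO1 and FGO and *Gdf9*, a growth factor gene, in GO2 and GO3. The 12 granulosa markers summed to 16.1 CPM in NGO, 45.7 CPM in GO1, 37.7 CPM in GO2, 36.8 CPM in GO3 and 21.1 CPM in FGO, with *Nr5a2* the most abundant in NGO, GO3 and FGO and *Cyp19a1*, the aromatase gene, in GO1 (16.3 CPM, against 1.11 CPM in NGO) and GO2 (13.3 CPM). *Amh* stood at 0 UMIs in GO2. The 9 markers of theca and stroma summed to 14.2, 2.65, 3.92, 4.88 and 7.26 CPM in the same order, led by *Acta2*. Of these, *Lum* stood at 0 UMIs in GO1, GO2 and GO3, *Pdgfra* in GO1 and GO2, *Col1a2* in GO1 and GO3, and *Col3a1* in GO2. The 6 endothelial markers summed to 8.06, 43.2, 43.6, 51.8 and 29.2 CPM, mostly *Pecam1*, with *Cdh5* at 0 in every stage but GO3, *Emcn* at 0 in every stage but NGO and *Kdr* at 0 in NGO. The 7 blood markers summed to at most 4.52 CPM, mainly *Cd68*, and the haemoglobin genes *Hbb-b1*, *Hba-a1* and *Hba-a2* and the leukocyte gene *Cd52* stood at 0 in all 5 stages. *Ptprc* stood at 0 in every stage but GO3, and *Lyz2* at 0 in GO2 and GO3. A count of 0 allows up to 0.119 CPM in NGO, 0.112 CPM in GO1, 0.120 CPM in GO2, 0.0602 CPM in GO3 and 0.0466 CPM in FGO (3 UMIs of the stage sum). The granulosa and endothelial sums were higher in GO1, GO2 and GO3, where the zona share of UMIs was lower, than in NGO and FGO. The granulosa sum was highest in GO1, where the zona share was lowest, and the endothelial sum was highest in GO3. The part of these cell types in the results was not tested.

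Depth differed between stages. The median UMI count of an oocyte was 540432 for NGO, 110146 for GO1, 676786 for GO2, 972294 for GO3 and 792312 for FGO. *Zp1*, *Zp2* and *Zp3* together took 1.82% of all UMIs for NGO, 0.631% for GO1, 0.728% for GO2, 0.786% for GO3 and 1.09% for FGO. These values are shares of the UMIs of a stage, so they do not give the number of transcripts in an oocyte.

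*Zp3*, which encodes a filament protein, was the most abundant transcript of all genes in NGO by CPM. In the stage sums it reached 11226 CPM in NGO, 4217 CPM in GO1, 5194 CPM in GO2, 5594 CPM in GO3 and 7512 CPM in FGO. It ranked 1st, 11th, 13th, 10th and 4th of all genes in the same order. Per kilobase of exon, among the 18796 genes with a length, it ranked 2nd in NGO and between 7th and 10th in the later stages.

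Single oocytes spread around these sums. *Zp3* ranged over NGO cells from 8649.8 CPM through a median of 11568 to 16128. In GO1 it ranged from 1397 through 2814 to 5829 CPM. In GO2 it ranged from 545 through 4973 to 6750 CPM. Every NGO oocyte thus lay above every GO1 oocyte. In GO3, *Zp3* ranged from 3727 through 5503 to 7533 CPM. In FGO it ranged from 2599 through 7512 to 14731 CPM. Of the FGO oocytes, 20 of 56 lay at or above the lowest NGO oocyte and 54 at or above the lowest GO3 oocyte, and 28 lay above the highest GO3 oocyte.

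*Zp2*, which encodes the filament protein that ovastacin cuts, had the steepest profile of the 3. Its stage sums were 4249.8 CPM in NGO, 827 CPM in GO1, 639.8 CPM in GO2, 713 CPM in GO3 and 1199.9 CPM in FGO. *Zp2* ranged over NGO cells from 2127 through a median of 4021 to 6475 CPM. In GO1 it ranged from 331 through 624 to 1477 CPM. All 51 GO1 oocytes lay below the lowest NGO oocyte. In GO2, *Zp2* ranged from 30.6 through 545 to 1215 CPM. In GO3 it ranged from 478 through 686 to 1049 CPM. In FGO it ranged from 648 through 1161 to 2783 CPM. Of the FGO oocytes, 54 of 56 lay below every NGO oocyte, and 34 lay above every GO3 oocyte.

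*Zp1*, which encodes the cross-linking protein, had the shallowest fall in the stage sums. Its stage sums were 2727 CPM in NGO, 1266 CPM in GO1, 1450.2 CPM in GO2, 1558 CPM in GO3 and 2204 CPM in FGO. *Zp1* ranged over NGO cells from 1868 through a median of 2684 to 3496 CPM. In GO1 it ranged from 189 through 525 to 1909 CPM. The ranges of NGO and GO1 met in a single cell on each side. In GO2, *Zp1* ranged from 74.6 through 1252 to 2302 CPM. In GO3 it ranged from 628 through 1535 to 2141 CPM. In FGO it ranged from 301 through 2138 to 3813 CPM. In contrast to *Zp2*, 37 of 56 FGO oocytes reached at least the level of the lowest NGO oocyte.

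**Figure D1:**
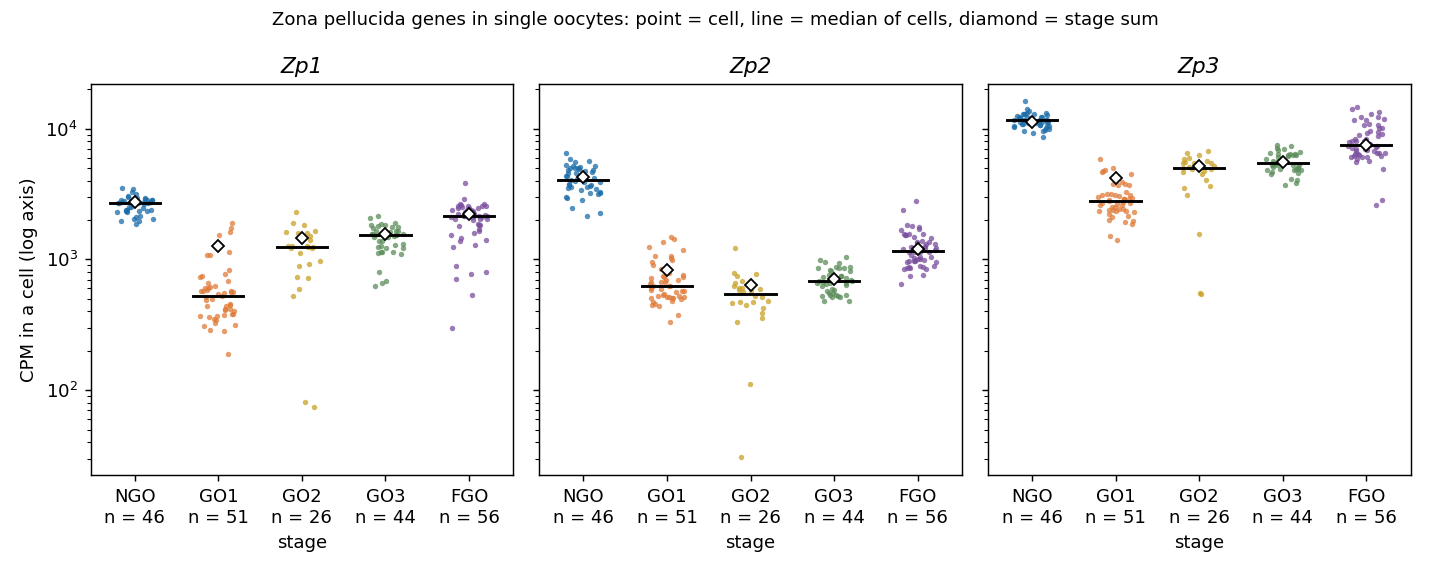
CPM of *Zp1*, *Zp2* and *Zp3* in every oocyte (points, log axis) by stage, with the median over cells (line) and the CPM of the summed stage (diamond). *Zp2* and *Zp3* of NGO lie above all GO1 cells, the GO1 diamonds lie above the GO1 medians, and 2 GO2 cells lie far below the rest.

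In the stage sums, the order of the stages was the same for *Zp1* and *Zp3*, with NGO highest, then FGO, GO3, GO2 and GO1. For *Zp2* the order in the sums was NGO, FGO, GO1, GO3 and GO2. Its GO1 and GO3 changed places in the median over cells, at 624 and 686 CPM. They also did so without the 10 deepest cells of each stage, at 622 and 709 CPM. Set against the spread of cells, some neighbours in these orders did not separate, in that their middle 50% of cells overlapped. This held for NGO and FGO and for GO3 and GO2 in *Zp1*, for GO1 and GO3 and for GO3 and GO2 in *Zp2*, and for GO3 and GO2 in *Zp3*. Cells are not replicates of a stage, so these overlaps describe the cells measured.

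From NGO to GO1, all 3 zona genes fell past the size rule used here. The rule asks for a difference of at least 2-fold where the higher of the 2 stages has 10 CPM or more. These falls are falls in the share of UMIs. The authors reported, from spike-in control RNA, a higher relative mRNA abundance in GO1 than in NGO oocytes. The number of zona transcripts in an oocyte was not estimated here and need not have fallen. *Zp2* fell 5.14-fold (95% interval 5.07 to 5.21, exact for the split of the UMIs, counting error only). *Zp3* fell 2.66-fold (2.64 to 2.68). *Zp1* fell 2.15-fold (2.13 to 2.18), and stayed within 2-fold, at -0.95 on the log2 scale, under TMM scaling. With the mean over cells the log2 difference was -2.09 for *Zp1* and -1.97 for *Zp3*, so *Zp1* had the smallest fall of the 3 in the sums and not in the means. Of the 8527 genes that reached 10 CPM in either stage, 25.7% were lower in GO1 by the same rule and 20.6% were higher. The median difference over these genes, in log2(CPM + 1), was -0.14, or 0.01 under TMM scaling. A fall past 2-fold between these stages was therefore a common result among genes, and the log2 differences of the zona genes were -2.36 for *Zp2*, -1.41 for *Zp3* and -1.11 for *Zp1*.

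Between neighbouring later stages, the zona genes stayed within 2-fold. None of the 3 passed the size rule from GO1 to GO2, where 3.14% of the genes tested did so in either direction. This step depended on the weight of cells for *Zp1*, whose log2 difference was 0.20 in the sums, 1.25 in the median over cells and 1.10 without the 10 deepest cells of each stage, the last 2 past 2-fold. Over all genes, 8 were higher and 223 lower in GO2 in the sums, 306 and 908 with the mean over cells, and 682 and 596 without the 10 deepest cells. None passed from GO2 to GO3, against 4.35% of the genes tested, and none from GO3 to FGO, against 5.96%. From GO3 to FGO, the ratio of CPM was 1.68 for *Zp2* (1.66 to 1.70), 1.41 for *Zp1* (1.40 to 1.43) and 1.34 for *Zp3* (1.34 to 1.35).

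Over the whole of growth from GO1 to FGO, the level in FGO was 1.78 times that in GO1 for *Zp3* (1.77 to 1.79), 1.74 times for *Zp1* (1.72 to 1.76) and 1.45 times for *Zp2* (1.43 to 1.47). None of these passed the size rule in the stage sums, where 7.98% of the 7873 genes tested were higher in FGO and 9.03% were lower. For *Zp1* and *Zp3* this call rests on the weight of a few deep cells. With the mean over cells in place of the sum, the log2 difference was 1.69 for *Zp1* and 1.48 for *Zp3*, both past 2-fold. Over all genes, 1327 were higher in FGO with the mean over cells, against 628 in the sums.

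From NGO to FGO, 1 of the 3 zona genes passed the rule, *Zp2*, which was 3.54-fold lower (3.51 to 3.57). *Zp3* was 1.49-fold lower (1.487 to 1.501) and *Zp1* 1.24-fold lower (1.23 to 1.25). Of the 8132 genes tested, 27.3% passed in either direction.

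The sums of GO1 rested on few oocytes. Its 10 deepest cells held 80.4% of all UMIs of the stage, and 91.6% of the *Zp1*, 86.5% of the *Zp3* and 85.3% of the *Zp2* UMIs. These 10 cells had a median of 1108 CPM of *Zp1*, against 449 in the other 41 cells. For *Zp3* the medians were 4216 and 2601 CPM. For *Zp2* they were 870.03 and 622 CPM. All 3 genes thus had a higher GO1 median in the 10 deepest cells, with the largest ratio between the medians for *Zp1*. For *Zp2* this did not extend to the deeper 26 of the 51 cells, whose median was 589 CPM against 667 CPM in the shallower 25. In FGO, *Zp3* went the other way, with 6296 CPM in the 10 deepest cells and 8050.2 in the other 46.

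Across single cells of GO1, the log2 level of *Zp1* correlated with the log depth of the cell at Pearson's r = 0.77, that of *Zp3* at 0.68 and that of *Zp2* at 0.15 (51 cells, which share libraries). *Zp1* had positive values in the other stages too, 0.49 in NGO, 0.59 in GO2, 0.54 in GO3 and 0.55 in FGO. *Zp3* stood at -0.31 in NGO, 0.48 in GO2, 0.16 in GO3 and 0.03 in FGO. *Zp2* stood at 0.36, 0.58, 0.16 and -0.03 in these stages. The part of depth in the zona levels was not tested.

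**Figure D2:**
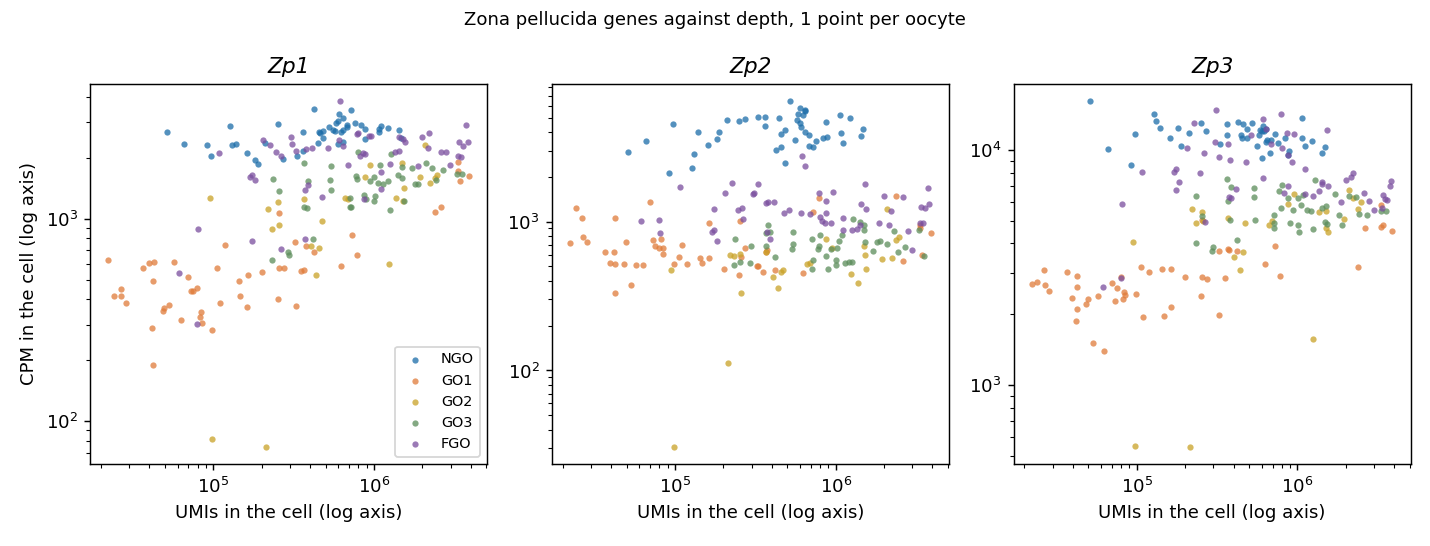
CPM of *Zp1*, *Zp2* and *Zp3* in each oocyte against the UMIs of that oocyte (both log axes), coloured by stage. In GO1, *Zp1* and *Zp3* are higher in cells of more UMIs, while *Zp2* shows little slope.

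All 3 transcripts were found in all 223 oocytes. After each cell was thinned at random to 20000 UMIs, each gene still had at least 1 UMI in every cell, except *Zp2* in GO2, where 25 of 26 cells had it (96.2%, exact binomial interval 80.4% to 99.9%). In the thinned cells, the coefficient of variation of *Zp3* was 13.01% for NGO, 35.2% for GO1, 36.5% for GO2, 16.7% for GO3 and 31.99% for FGO. Counting alone would give 6.61%, 12.96%, 10.3%, 9.50% and 7.76%. The oocytes of NGO and GO3 were thus the more uniform in *Zp3*, and those of GO1, GO2 and FGO the more variable, although in GO2 the value was 24.5% without the 2 cells of least *Zp3*. *Zp2* in GO3 varied by 29.4%, close to the 27.3% of counting alone.

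The proportions of the 3 transcripts shifted with growth. Levels of different genes were compared as UMIs per kilobase of exon. *Zp3* exceeded both *Zp1* and *Zp2* in all 223 oocytes, with or without division by length. Its median ratio to *Zp1* per kilobase stayed between 5.57 in GO3 and 7.84 in GO1. In the stage sums, however, GO1 had the lowest such ratio of the 5 stages, at 4.94. In plain UMIs the median ratio stayed between 3.75 in GO3 and 5.29 in GO1. In contrast, the median ratio of *Zp3* to *Zp2* per kilobase was 4.56 for NGO, 7.29 for GO1, 14.5 for GO2, 13.6 for GO3 and 11.6 for FGO. In plain UMIs it was 2.70, 4.32, 8.62, 8.07 and 6.88 in the same order.

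The ratio of *Zp2* to *Zp1* crossed 1 during growth. Its median over cells, per kilobase, was 1.38 for NGO, 1.02 for GO1, 0.423 for GO2, 0.423 for GO3 and 0.528 for FGO. *Zp2* exceeded *Zp1* on this scale in 39 of 46 NGO cells (84.8%, exact binomial interval 71.1% to 93.7%) and in 28 of 51 GO1 cells (54.9%, 40.3% to 68.9%). It did so in 1 of 26 GO2 cells, 0 of 44 GO3 cells and 4 of 56 FGO cells. The 0 in GO3 allows a share of up to 6.82% (3 cells of 44), or 8.04% by the exact binomial interval. Both limits take the cells as independent, although they share libraries. Most NGO oocytes therefore held more *Zp2* than *Zp1* per kilobase, and nearly all GO2, GO3 and FGO oocytes held less. GO1 oocytes were divided on this scale. Without division by length, *Zp2* exceeded *Zp1* in 41 of 46 NGO cells and 34 of 51 GO1 cells (66.7%, 52.1% to 79.2%). In plain UMIs most GO1 oocytes thus held more *Zp2* than *Zp1*, with a median ratio of 1.17. On that scale *Zp2* also exceeded *Zp1* in 1 of 26 GO2, 1 of 44 GO3 and 6 of 56 FGO cells. In the stage sums the ratio per kilobase was 1.37 in NGO and 0.574 in GO1, so GO1 fell below 1 when its deep cells weighed most.

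**Figure D3:**
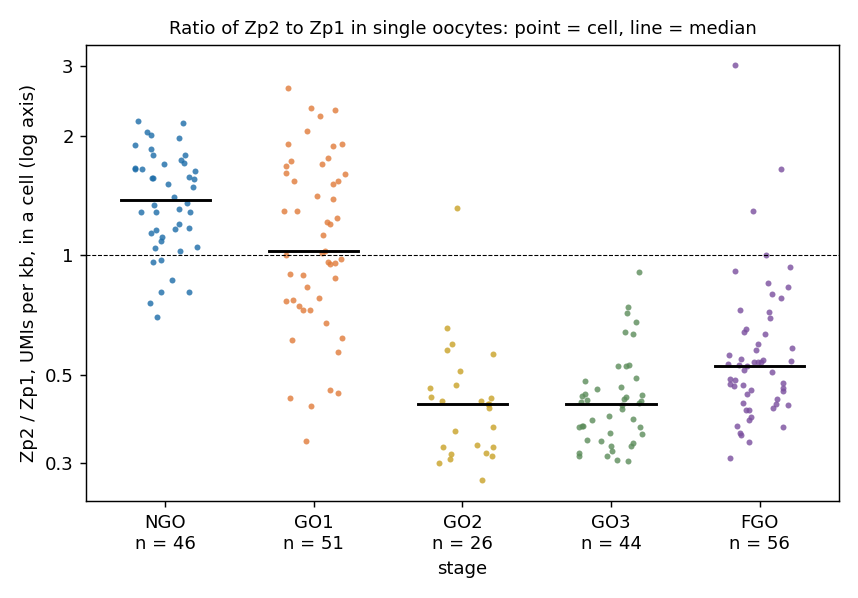
Ratio of *Zp2* to *Zp1*, in UMIs per kilobase of exon, in each oocyte (points, log axis) by stage, with the median (line) and a dashed line at 1. The median moves from 1.38 in NGO through 1.02 in GO1 to 0.423 in GO2 and GO3.

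Within a stage, the closeness of the 3 genes from cell to cell differed by pair and by measure. Pearson's r of log2(CPM + 1) between *Zp1* and *Zp3* was 0.17 for NGO, 0.85 for GO1, 0.96 for GO2, 0.83 for GO3 and 0.67 for FGO. Between *Zp2* and *Zp3* it was 0.01, 0.32, 0.89, 0.44 and 0.58 in the same order. Between *Zp1* and *Zp2* it was -0.02, 0.32, 0.92, 0.47 and 0.47. By Pearson's r before thinning, *Zp1* and *Zp3* were thus the closest pair in each stage, with values of 0.17 or less in NGO. Spearman's rho gave another order in FGO, 0.51 between *Zp1* and *Zp3*, 0.61 between *Zp1* and *Zp2* and 0.63 between *Zp2* and *Zp3*, and in GO2 it was 0.81 and 0.82 for *Zp3* with *Zp1* and with *Zp2*. These values describe 46, 51, 26, 44 and 56 cells that share libraries and, within a cell, depth. With the depth of the cell removed by regression, r between *Zp1* and *Zp3* was 0.38 for NGO, 0.69 for GO1, 0.96 for GO2, 0.90 for GO3 and 0.77 for FGO. In NGO it was -0.24 between *Zp1* and *Zp2* after the same removal. In cells thinned to 20000 UMIs, r between *Zp1* and *Zp3* was 0.61 in GO1 and 0.53 in GO3. In thinned NGO cells it was -0.034, below the 0.021 between *Zp1* and *Zp2* and the -0.012 between *Zp2* and *Zp3*.

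The high values in GO2 owed part of their size to 2 oocytes with little of each zona transcript. These had 545 and 551 CPM of *Zp3*, and the next lowest GO2 cells had 1574 and 3091. *Zp1* stood at 74.6 and 81.6 CPM in them, and *Zp2* at 111.9 and 30.6. Both were shallow, with 214486 and 98004 UMIs and 6343 and 4986 genes found. The GO2 medians were 676786 UMIs and 10955.5 genes. Without them, r in GO2 was 0.80 between *Zp1* and *Zp3*, 0.75 between *Zp1* and *Zp2* and 0.56 between *Zp2* and *Zp3*. The same cells stood apart in other genes too. They held 93.2 and 81.6 CPM of *Nobox*, against a median of 1035 CPM in the other 24 GO2 cells, and 256 and 153.1 CPM of *Khdc3*, a maternal effect gene, against 2714 CPM. They held 31391 and 27060 CPM of the securin gene *Pttg1*, against 9772 CPM. *Gdf9*, at 3520 and 2653 CPM against 4774 CPM, lay within the range of the other cells. So did *Dppa3*, at 7646 and 7459 CPM against 5338 CPM. The part of depth in these differences was not tested. These cells and the genes beside them were singled out after their values were seen.

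Several genes had nearly the stage profile of a zona gene. Likeness was measured as the root mean square difference of log2(CPM + 1) over the 5 stage sums, each gene centred on its own mean, among the 4519 genes that reached 50 CPM in some stage. Nearest to *Zp3* were *Arf5*, a small GTPase gene of vesicle transport (0.01), *Rac3*, *Nudt16l1*, *Tmem134* and *Rexo2*. Nearest to *Zp1* were *Tmem126a* (0.03), *Alad*, a gene of haem synthesis, *Dctpp1*, *Napa*, which encodes an adaptor of vesicle fusion, and *Pigs*. Nearest to *Zp2* were *Fbxw5* (0.07), *Ccdc73*, *Chmp1a*, *Gbe1*, which encodes the glycogen branching enzyme, and *Ndrg4*. Their levels were far lower, as in *Arf5* with 133.4 CPM in NGO and 90.8 in FGO. Among the zona genes themselves, *Zp1* and *Zp3* differed by 0.11 with 63 genes nearer to *Zp1*, and *Zp1* and *Zp2* by 0.67 with 3156 nearer to *Zp1*. With profiles from means over cells, the 5 nearest shared 1 gene with these lists for *Zp1*, 1 for *Zp3* and 0 for *Zp2*, so most of these names depend on the weight of cells.

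Across all 223 cells, stages together, Pearson's r was 0.93 between *Zp1* and *Zp3*, and no gene of the 4519 lay closer to *Zp1* than *Zp3* did. It was 0.79 between *Zp2* and *Zp3* and 0.70 between *Zp1* and *Zp2*. The gene with the highest r to *Zp2* was *Padi6* (0.94), which encodes a protein of the cytoplasmic lattices of the oocyte and is named here after its values were seen. These correlations hold the differences between stages and share depth.

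The 14 genes listed as regulators of zona genes were mostly lower in GO1 than in NGO. Of the 13 that reached 10 CPM in NGO or GO1, 11 fell and 0 rose, with a median difference of -1.92 in log2(CPM + 1), beside -0.14 over all genes tested and 25.7% of genes lower. All 13 reached 10 CPM in NGO and 8 did in GO1, so the other 5 (*Sohlh1*, *Sohlh2*, *Id1*, *Id2* and *Tcf4*) were tested only through their level in NGO. *Figla*, the E-box factor named above, stood at 597 CPM in NGO, 65.5 CPM in GO1, 58.8 CPM in GO2, 102.3 CPM in GO3 and 170.5 CPM in FGO. Its level was higher in each stage after GO2 than in the one before, and it fell 9.11-fold from NGO to GO1 (8.67 to 9.58). The E protein genes, whose products pair with FIGLA, fell too, *Tcf3* 2.35-fold, *Tcf12* 3.32-fold and *Tcf4* 3.34-fold.

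The other regulators that passed the size rule fell by different amounts. *Sohlh1*, a helix-loop-helix gene of early oocytes, went from 374 CPM in NGO to 0.336 in GO1, which rests on 9 UMIs, and back to 19.2 in FGO. Its partner *Sohlh2* fell 10.2-fold and *Tbpl2*, which encodes an oocyte TBP-like factor, 12.2-fold. *Id1*, *Id2* and *Id3*, whose products block helix-loop-helix factors, fell 5.32-fold, 4.07-fold and 14.3-fold, so genes for activators and for inhibitors were among those that fell. *Lhx8*, a homeobox gene, fell 2.06-fold, and this call was lost under TMM scaling and under size factors. *Id4* had at most 0.336 CPM in NGO and GO1, and *Taf4b*, a TFIID subunit gene, had 13.5 and 11.9 CPM.

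*Nobox*, a homeobox gene of growing oocytes, stayed within 2-fold from NGO to GO1 in the stage sums. These were 1244 CPM in NGO, 897 CPM in GO1, 1186 CPM in GO2, 1745 CPM in GO3 and 1658 CPM in FGO. This depended on the weight of cells. From NGO to GO1 it fell past 2-fold in the mean over cells, at -1.56 on the log2 scale. It also did so without the 10 deepest cells of each stage, at -1.68. From GO1 to FGO, 5 of the 12 regulators tested rose, *Figla*, *Sohlh1*, *Sohlh2*, *Tbpl2* and *Id3*, and 0 fell, beside 7.98% of all genes higher. Of the 12, *Sohlh1*, *Sohlh2*, *Id2* and *Tcf4* were tested only through their level in FGO. In the means over cells 8 of 12 rose, where the genes higher over the whole table numbered 1327 against 628 in the sums.

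**Figure D4:**
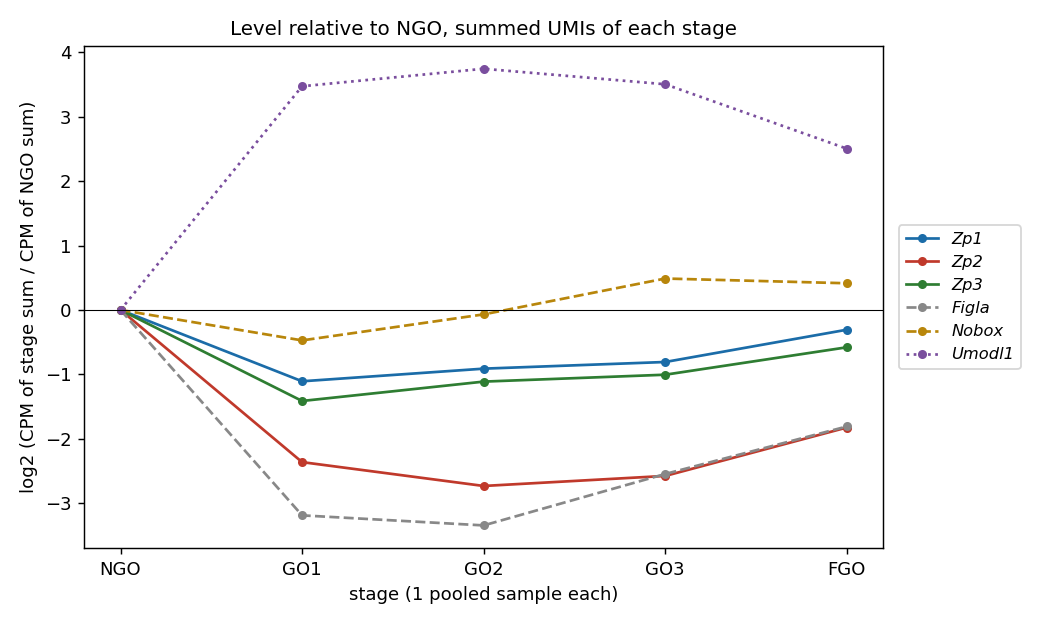
Log2 ratio of the stage CPM to that of NGO for *Zp1*, *Zp2*, *Zp3*, the regulators *Figla* and *Nobox* and the ZP-domain gene *Umodl1*, from summed UMIs of 1 pooled sample per stage. *Figla* and *Zp2* lie lowest, *Zp1* and *Zp3* between, and *Umodl1* above NGO throughout.

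Of the 12 other genes with a ZP domain, 3 reached 10 CPM in NGO or GO1, and all 3 rose, against 20.6% of all genes higher. *Dmbt1* and *Tgfbr3* were under 10 CPM in NGO and so were tested only through their level in GO1. *Umodl1*, a uromodulin-like gene, had 225 CPM in NGO, 2496 CPM in GO1, 3012 CPM in GO2, 2549.6 CPM in GO3 and 1275 CPM in FGO. It rose 11.1-fold from NGO to GO1 (10.8 to 11.4), while the zona genes fell. *Dmbt1*, which encodes a mucosal scavenger protein, went from 1.59 to 38.3 CPM, and *Tgfbr3*, the betaglycan gene, from 5.95 to 18.02 CPM. *Tecta*, of the inner ear, stood at 0 UMIs in all 5 stages. The *Zp4* entry of the table, a pseudogene in the mouse, had between 0.0397 and 2.13 CPM, and is named after its values were seen.

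Enzymes that cut zona proteins were mostly low. *Astl*, which encodes ovastacin, stood at 879 CPM in NGO, 491 CPM in GO1, 543 CPM in GO2, 661 CPM in GO3 and 929 CPM in FGO. Its profile dipped in GO1 like those of the zona genes, by less than 2-fold in the stage sums and by more in the mean over cells, at -1.69 on the log2 scale. *Fetub*, the gene of the ovastacin inhibitor fetuin-B, went the other way late in growth, with 77.6 CPM in NGO, 85.8 CPM in GO1, 93.6 CPM in GO2, 45.7 CPM in GO3 and 14.1 CPM in FGO. It fell 3.25-fold from GO3 to FGO (3.01 to 3.51). Among the convertases, *Furin* stood between 20.04 and 33.5 CPM, while *Pcsk5*, *Pcsk6* and *Pcsk7* did not reach 10 CPM in any stage. Of the 6 genes in the list, 3 were tested from NGO to GO1, and 0 passed the rule in either direction, beside 25.7% of all genes lower and 20.6% higher. With the mean over cells, *Astl* passed it as lower.

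The secretory pathway genes are described by step, since zona proteins are made there. For the folding of proteins in the endoplasmic reticulum, 7 of 12 genes fell from NGO to GO1 and 1 rose, beside 25.7% of all genes lower and 20.6% higher, with a median difference of -1.44 in log2(CPM + 1), beside -0.14 over all genes tested. *Ero1l*, a disulfide-forming oxidase gene, fell 9.98-fold, *Pdia3*, a disulfide isomerase gene, 5.04-fold and the chaperone gene *Hsp90b1* 3.61-fold, whereas *Uggt1*, which encodes a folding sensor, rose 2.62-fold to 13.6 CPM. *Ero1l*, at 7.51 CPM in GO1, and *Uggt1*, at 5.20 CPM in NGO, were tested only through the stage where they were high. For entry into the reticulum and removal of the signal peptide, 6 of 18 fell and 0 rose, a share of falls near the 25.7% of all genes, with a median of -0.35. Under the alternatives 5 to 7 fell and up to 3 rose, the 3 without the 10 deepest cells of each stage. Over all genes, 3189 were lower and 1837 higher without those cells, against 2193 and 1758 in the sums. *Sec61a2*, tested only through its level in NGO, fell 6.07-fold, *Srp68* 3.94-fold and *Ssr2* 3.90-fold.

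For N-glycosylation, 4 of 14 genes fell and 1 rose, with a median of -0.69. *Mgat2*, of complex glycan synthesis and tested only through its level in NGO, fell 18.2-fold, and *Ddost* and *Rpn2*, subunits of the oligosaccharyl transferase, 4.26-fold and 3.78-fold, while *Tusc3*, of the same complex, rose 2.09-fold. With means over cells, 7 of the 14 fell and 2 rose. For O-glycosylation, 4 of 8 genes were tested, of which *B3gnt2* fell 3.03-fold and *C1galt1c1*, the chaperone of the core 1 enzyme, rose 2.47-fold. The counts from the sums stand beside 25.7% of genes lower and 20.6% higher over the same step, and with the mean over cells 2954 genes were lower against 2193 in the sums.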

How the data were processed

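Single oocytes were measured by single-cell RNA-seq in 4 libraries. The authors deposited whole-number UMI counts per gene, with no normalization, for the 223 cells that passed their filters. Tophat had placed the trimmed reads of each barcode on mouse transcripts (mm9, per the submitters' processing notes). Whether counting used strand is not given in the sources used here. Counts of near-identical copies of a gene could be split by such alignment.

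For each stage, the UMIs of a gene over all its cells were expressed as CPM of the total of the stage. Sums carry exact Poisson and ratios of sums exact binomial-split intervals at 95%. These intervals cover counting error only. Shares of cells carry exact binomial intervals, which treat cells as independent draws. They leave out the counting error within a cell and the libraries that cells share. Stage totals ran from 24976634 to 64311908 UMIs, and cells from 22279 to 3898137. Gene positions and exon lengths came from GENCODE vM1 (NCBIM37), with lengths for 18796 of 23201 genes, and the promoter from a RefSeq table of GRCm38.p6, which held 1 of the 3 zona genes. Samples were grouped by the stage in the column name, 1 pooled sample per stage, and no per-sample column was set aside (0). With no library or barcode in the names, barcodes shared between libraries were not counted, and 0 pairs of cells were identical. No doublet caller was run, as the oocytes were picked by hand.

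The genes and lists were chosen with earlier results of these data known. Named genes were the 3 members, the 5 nearest stage profiles of each, all listed regulators and processing genes, ZP-domain genes of at least 10 CPM, the 3 largest rises and falls from NGO to GO1 past the size rule in each secretory list, and the most abundant marker of each stage and those at 0 UMIs in each marker list. The alternatives were other scalings, weights, depths and numbers of cells, a total without the zona genes, other limits on CPM and a 1.5-fold limit. DESeq2 (1.42.0) and edgeR (4.0.16) served for scaling only, in R 4.3.3. The rest used scipy 1.17.1, matplotlib 3.10.9, pandas 2.3.3 and numpy 2.4.6 under Python 3.11.15, with a fixed random seed. The size rule was also run on simulated counts whose planted changes lay well past its limit. Those counts held counting error only, so they do not show how the rule behaves near 2-fold in these cells. The iscCOOL-seq libraries were not analysed here, and the list of barcodes was not used.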

Additional observations from a re-analysis of the deposited data

How the results depend on the processing

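Each stage was 1 pooled sample, so no replicate was left out, and counting intervals do not cover differences between animals or libraries. No paired analysis was possible because the count columns carry no replicate numbers and no result comes from a test. The removal of cell depth from the correlations, GO2 without its 2 cells of least *Zp3* (correlations and spread), the lists under other scalings and weights, and the 10 deepest cells beside the rest were chosen after seeing the data.

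The fall of *Zp2* and *Zp3* from NGO to GO1 was past 2-fold in all 9 settings run, and that of *Zp1* in 8 of 9. In log2 units, *Zp1* (-1.11 in the sums) gave -1.01 with DESeq2 size factors, -0.95 with TMM factors, -2.09 with the mean over cells, -2.35 with the median over cells, -2.33 without the 10 deepest cells of each stage, -2.09 with cells thinned to 20000 UMIs and -1.41 with equal numbers of cells (26 a stage). In the same order *Zp2* (-2.36) gave -2.26, -2.20, -2.55, -2.69, -2.80, -2.57 and -2.43. *Zp3* (-1.41) gave -1.31, -1.25, -1.97, -2.04, -1.99, -1.94 and -1.59, and -1.43 with the zona genes left out of the total.

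From GO1 to FGO, *Zp1* (0.80) gave 0.78 with DESeq2 size factors, 1.69 with the mean over cells, 2.03 with the median, 1.97 without the deepest cells, 1.71 with thinned cells and 1.07 with equal numbers. *Zp2* (0.54) gave 0.80 with the mean, 0.90 with the median, 0.98 without the deepest cells and 0.79 with thinned cells. *Zp3* (0.83) gave 0.81 with DESeq2 size factors, 0.85 with TMM factors, 1.48 with the mean, 1.42 with the median, 1.55 without the deepest cells, 1.48 with thinned cells and 1.02 with equal numbers. *Zp1* and *Zp3* thus passed 2-fold in 5 of 9 settings, those of the mean, the median, no deepest cells, thinned cells and equal numbers, and *Zp2* in 0 of 9.

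The direction turned in 3 results with a direction. With DESeq2 size factors the differences from GO2 to GO3 were -0.046 for *Zp1* and -0.042 for *Zp3*. The *Zp2* to *Zp1* ratio in GO1, in UMIs without division by length, was 0.653 in the sums and 1.17 as a median over cells. The cause of the first 2 was not tested. The correlations within NGO, close to 0 apart from 0.17 between *Zp1* and *Zp3*, changed sign in cells thinned to 20000 UMIs, to -0.034 for *Zp1* and *Zp3*, 0.021 for *Zp1* and *Zp2* and -0.012 for *Zp2* and *Zp3*.

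The background counts moved as well. Genes higher in GO1 than in NGO (1758) came to 4938 with no filter on low counts and 847 with a limit of 50 CPM, and genes lower (2193) to 5491 and 966. Genes higher in FGO than in GO1 (628) came to 1327 with the mean over cells, 1728 without the deepest cells, 1453 with thinned cells, 3664 with no filter, 172 with 50 CPM and 1357 with a 1.5-fold limit. Genes lower (711) came to 1222 with the mean, 1356 with thinned cells, 3454 with no filter, 257 with 50 CPM and 1522 with a 1.5-fold limit. The other 30 values of these changes and counts stayed within the interval or within 1.5 times. Of the finer values 246 moved and 52 did not, judged by the counting interval for levels and single steps and by 1.5 times for counts of genes, with each correlation and ratio counted as moved.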
